A study of Homo sapiens with 4 samples.

Results

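The cereblon ubiquitin ligase and the proteins it acts on were followed through 10 genes: the substrate receptor CRBN, the ligase components DDB1, CUL4A, CUL4B and RBX1, the substrates IKZF1, IKZF3 and ZFP91, the signalosome subunit COPS5, and BSG, a membrane protein whose maturation cereblon assists. The genes were chosen by name, with earlier results of these data known, and all 10 had a row among the 15201 genes of the expression table. The cells were ARP-1, a cell line from human multiple myeloma, in 2 forms. WT is the wild-type line (n = 2 libraries), and CfzR is ARP-1 made resistant to carfilzomib, a proteasome inhibitor (n = 2 libraries). The labels give neither the dose nor the length of selection, nor whether CfzR is a single clone or whether the drug was present at harvest, and they do not state that the replicates are separate cultures. The p-values therefore reflect the spread of these 4 libraries alone, and that spread may be technical.

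Cereblon is the substrate receptor of a cullin-RING ligase. DDB1 links it to the scaffold CUL4A or CUL4B, and RBX1 brings the ubiquitin-loaded enzyme to the complex. Thalidomide, lenalidomide and pomalidomide, drugs used in myeloma, bind cereblon and make it ubiquitinate the lymphoid transcription factors Ikaros (IKZF1) and Aiolos (IKZF3), which the proteasome then destroys. In myeloma cells the loss of these factors is followed by a fall of IRF4 and MYC, and low cereblon is a known route of resistance to these drugs. The comparison bears on cross-resistance only at the level of transcripts: the labels name no treatment with a cereblon-binding drug, and neither protein nor drug response was measured.

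No gene of the cereblon ligase or of its substrates passed the test between CfzR and WT. CRBN stood at 19.0 ± 2.74 FPKM in WT and 18.8 ± 1.24 in CfzR (SD, n = 2 each), where FPKM is the fragment count scaled to transcript length and library size. IKZF1 stood at 17.5 ± 0.129 and 16.8 ± 4.97 FPKM, and IKZF3 at 23.7 ± 0.925 and 24.0 ± 3.54 FPKM. The test was limma on log2(FPKM + 1) over the 13411 genes whose mean reached 1 FPKM, with Benjamini-Hochberg adjustment over all of them and a threshold of 0.05. Among the 10 genes 0 passed, 0 had an unadjusted p under 0.05, and the smallest adjusted p was 0.646, for CUL4B. Over all genes tested 47 passed, which is 0.350%, and 11.1% had an unadjusted p under 0.05. With a background that low, a count of 0 among 10 genes says little by itself. In bulk libraries such as these, fewer cells with a transcript and less of it per cell cannot be told apart.

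The log2 fold changes of the 10 genes ran from -0.22 to 0.27, and their median was -0.04 against -0.02 over all genes tested. Their median size, regardless of sign, was 0.13 against 0.24 over all genes tested. All 10 had a 95% confidence interval that lay between -1 and 1 on the log2(FPKM + 1) scale, as did 69.95% of all genes tested. The lowest bound was -0.86, for BSG, and the highest was 0.76, for CUL4B. These intervals are not adjusted for the number of genes and rest on the spread of 2 libraries per group together with values pooled over genes. With WT replicate 1 left out, 6 of the 10 intervals lay within these limits, and with WT replicate 2 left out 7 did. Those 2 fits took their spread from values pooled over genes, not from each gene, so they are no check on the main intervals. ABCB1, the drug efflux pump, for comparison stood at 1.27 and 0.631 FPKM in the WT pair against 268 and 228 in the CfzR pair, a log2 fold change of 7.01 (SE 0.23, limma adjusted p = 5.15e-05).

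**Figure D1:**
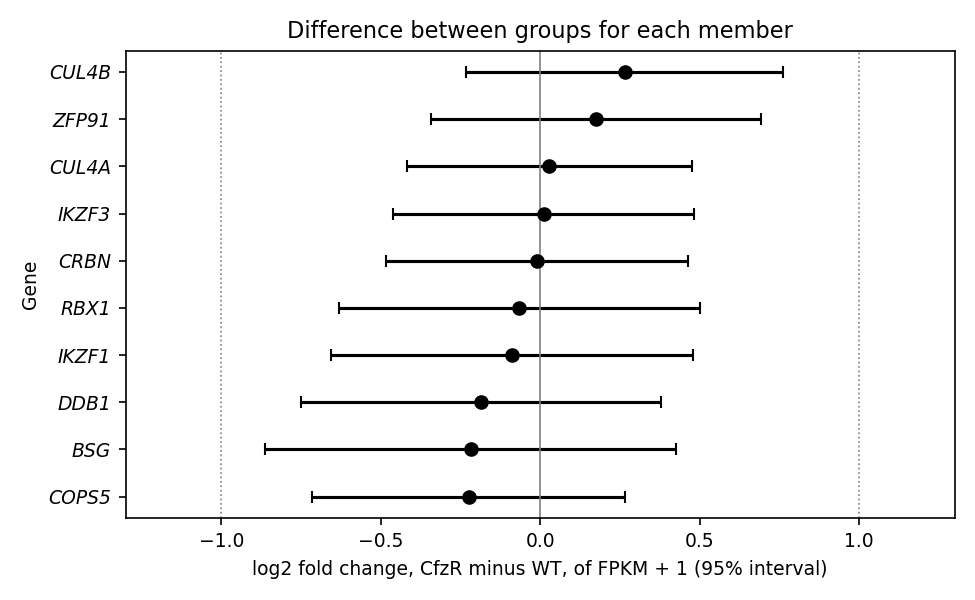
Log2 fold change of each gene (CfzR minus WT, on log2(FPKM + 1); points) with its 95% confidence interval from limma (bars), 2 libraries per group; dotted lines mark -1 and 1. Every interval spans 0 and lies within the dotted lines, from -0.86 for BSG to 0.76 for CUL4B.

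The libraries had like median levels, from 7.50 to 7.75 FPKM, while their sums ran from 673265 in CfzR replicate 1 to 955284 in WT replicate 2. The difference between the 2 CfzR libraries correlated across genes, which are not independent replicates, with transcript length (Spearman 0.466), against 0.146 for the WT pair. With GC share the values were -0.350 for the CfzR pair and 0.079 for the WT pair. CfzR replicate 1 had the lowest sum, but a difference between 2 libraries does not tell which of them departs. All 9 plasma cell markers of a fixed list had a value, with summed levels of 5865 and 5948 FPKM in the WT pair against 6675 and 6112 in the CfzR pair. The labelled cell type was thus matched by the listed markers other than SLAMF7 in WT. CD38 was modest, at 16.3 and 13.6 FPKM in the WT pair against 21.0 and 12.0 in the CfzR pair. JCHAIN alone made up most of each sum, at 3613 and 3493 FPKM in the WT pair against 4601 and 3838 in the CfzR pair. TNFRSF17 (312 and 382 against 194 and 275 FPKM) and XBP1 (953 and 1084 against 800.03 and 868 FPKM) were lower in both CfzR libraries. SLAMF7 was near 0 in WT, at 0.282 and 0.198 FPKM, against 22.1 and 18.7 in CfzR. Markers of B cells, T and NK cells, myeloid cells and erythroid cells (15 genes) are not analysed here. Of 5 markers of stroma and epithelium, PDGFRB and KRT8 had a value, and their sum was 7.69 to 8.95 FPKM in the 4 libraries. Within it PDGFRB was higher in both CfzR libraries (4.01 and 3.56 against 6.01 and 4.75 FPKM) and KRT8 lower (4.25 and 5.39 against 1.67 and 3.28 FPKM). The part of these markers in the results was not tested.

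The order of levels was nearly the same in all libraries. BSG was the highest of the 10 in each of the 4 libraries, followed by DDB1, COPS5, RBX1 and CUL4A, in that order every time. ZFP91 was the lowest in all 4. CUL4B was above IKZF3 in 3 of 4 libraries, and CRBN above IKZF1 in 2 of 4, so these neighbours do not differ beyond their spread. The ranges over the 4 libraries also overlapped between DDB1 and COPS5, CUL4A and CUL4B, and IKZF1 and ZFP91, although the former was above the latter of each pair in all 4 libraries. FPKM is scaled to transcript length, but levels of different genes can be set side by side only roughly. The transcripts that these cells express are not known, and the difference between the CfzR libraries followed length.

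**Figure D2:**
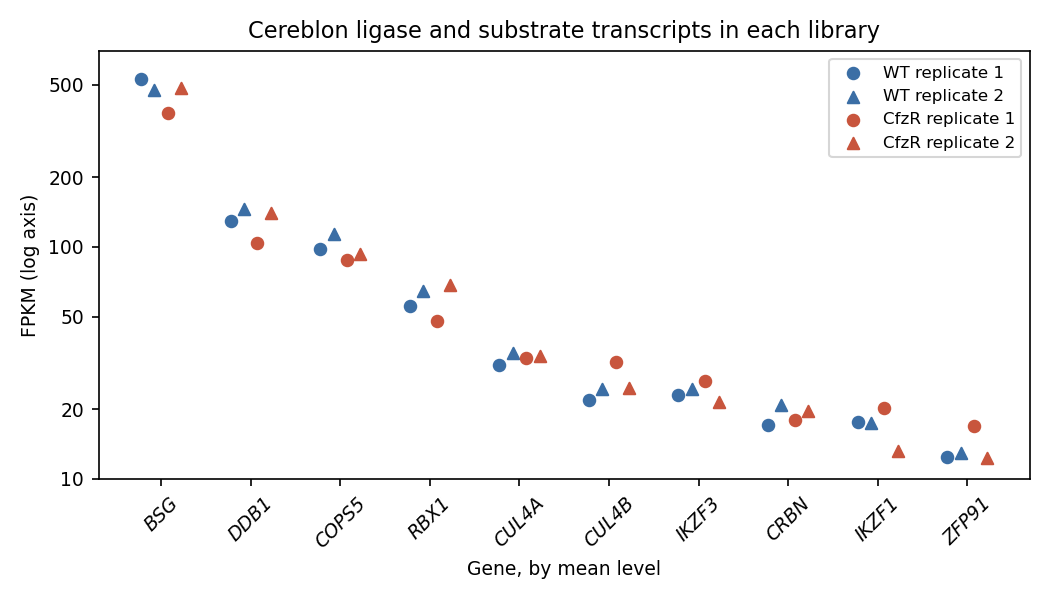
FPKM (log axis) of the 10 genes, ordered by their mean over 4 libraries; blue is WT, red is CfzR, circles are replicate 1 and triangles replicate 2. BSG sits at 379 to 527 FPKM and CRBN at 17.0 to 20.9, and for RBX1, IKZF1, IKZF3 and ZFP91 the CfzR points lie on either side of the WT points.

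CRBN, which holds the pocket that thalidomide and its analogues bind, lies on chromosome 3 (3144628 to 3179727, minus strand; positions are those of GENCODE release 29 on GRCh38, not coordinates from the authors). Its level was 17.0 FPKM in replicate 1 and 20.9 in replicate 2 of WT, and 17.9 and 19.7 in the CfzR pair. Both CfzR values lay between the WT values. The log2 fold change was -0.01 (SE 0.20, 95% interval -0.48 to 0.46, limma adjusted p = 0.989). As a fold of FPKM + 1 the interval runs from 0.715 to 1.38. Over the 13 alternatives the log2 fold change ran from -0.23, with correction for transcript length and GC share, to 0.13, without WT replicate 2, and the smallest adjusted p was 0.624. By level CRBN lay between the 62.2 and the 65.9 percentile of tested genes in the 4 libraries. By the smallest distance of centred log2 values over the 4 libraries, the genes most like CRBN were SSBL4P, CCDC91 and TERF2IP, with distances of 0.03. CRBN itself spans 0.28 on that scale, and 2484 tested genes lay within 0.3 of it, so over 4 libraries the likeness does not single out these genes.

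DDB1, the adaptor that carries cereblon and the other CUL4 receptors (chromosome 11, 61299451 to 61342596, minus strand), was far more abundant than CRBN. It stood at 130 and 145 FPKM in the WT pair against 104 and 140 in the CfzR pair. The lower CfzR value was in replicate 1, and CfzR replicate 2 lay within the WT range. This gave a log2 fold change of -0.19 (SE 0.24, 95% interval -0.75 to 0.38, limma adjusted p = 0.768), and it was 0.03 without CfzR replicate 1.

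The cullin scaffolds CUL4A and CUL4B are paralogues that can each build the ligase. CUL4A (chromosome 13, 113208193 to 113267108, plus strand) stood at 31.0 and 35.0 FPKM in the WT pair against 33.2 and 34.0 in the CfzR pair. Its CfzR values lay between the WT values, with a log2 fold change of 0.03 (SE 0.19, limma adjusted p = 0.960). CUL4B (chromosome X, 120524609 to 120575794, minus strand) stood at 22.0 and 24.4 FPKM in the WT pair against 31.9 and 24.6 in the CfzR pair.

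CUL4B and COPS5 were the only members, 2 of 10, whose groups did not overlap, and CUL4B had the largest log2 fold change, 0.27 (SE 0.21, 95% interval -0.23 to 0.76, limma adjusted p = 0.646). CfzR replicate 2 exceeded the higher WT library by little, and most of the difference lay in CfzR replicate 1. Without that library the log2 fold change was 0.084, and with correction for transcript length and GC share it was 0.07. Groups did not overlap for 44.7% of all tested genes, 22.1% with CfzR higher and 22.6% with CfzR lower, so a count of 2 of 10 is below the background.

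RBX1, the RING protein that recruits the ubiquitin-conjugating enzyme (chromosome 22, 40951347 to 40973309, plus strand), stood at 55.4 and 64.6 FPKM in WT. In CfzR it was 47.8 in replicate 1 and 68.2 in replicate 2. The CfzR libraries thus enclosed the WT libraries. On the log2 scale CfzR minus WT was -0.07 (SE 0.24, limma adjusted p = 0.928), and it was 0.19 with CfzR replicate 1 left out and -0.32 with CfzR replicate 2 left out.

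The 3 substrates are zinc finger proteins that the drug-bound receptor recognises through a finger whose second cysteine is followed by glycine. The coding sequence of that finger is shown because it encodes the part by which the drug-bound ligase takes hold of these 3 proteins. Each stretch is 63 bases of the reference coding sequence in GENCODE release 29, read on the sense strand. Capitals mark the codons of the paired cysteines, of the glycine after the latter cysteine and of the paired histidines. They are reference sequences, and the sequence in ARP-1 was not examined.
IKZF1, finger 2: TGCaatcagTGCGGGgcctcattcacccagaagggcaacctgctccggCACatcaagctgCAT
IKZF3, finger 2: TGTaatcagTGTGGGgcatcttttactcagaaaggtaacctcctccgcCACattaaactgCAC
ZFP91, finger 4: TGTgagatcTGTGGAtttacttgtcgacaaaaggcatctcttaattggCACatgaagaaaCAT
They lie at bases 439 to 501, 442 to 504 and 1204 to 1266 of the coding sequence, counted from 1 at the start codon. The fingers of IKZF1 and IKZF3 shared 50 of 63 bases (79.4%), and that of ZFP91 shared 30 of 63 (47.6%) with either. The glycine codon occurred in 4 of 6 fingers found in IKZF1, 3 of 5 in IKZF3 and 4 of 5 in ZFP91, so the capitals alone do not define a target.

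IKZF1, which encodes Ikaros (chromosome 7, 50304068 to 50405101, plus strand), stood at 17.6 and 17.4 FPKM in WT. It was 20.3 in CfzR replicate 1 and 13.2 in CfzR replicate 2. One CfzR library was above and the other below both WT libraries, which were 0.01 apart on the log2(FPKM + 1) scale while the CfzR libraries were 0.58 apart. The log2 fold change was -0.09 (SE 0.24, 95% interval -0.66 to 0.48, limma adjusted p = 0.896). With CfzR replicate 1 left out it was -0.38, and with CfzR replicate 2 left out 0.20, so its sign depends on which library is kept.

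IKZF3, which encodes Aiolos, the partner of Ikaros in plasma cells (chromosome 17, 39757715 to 39864188, minus strand), stood at 23.0 and 24.3 FPKM in the WT pair against 26.5 and 21.5 in the CfzR pair. The CfzR libraries again lay on either side of the WT libraries. This gave a log2 fold change of 0.01 (SE 0.20, 95% interval -0.46 to 0.48, limma adjusted p = 0.988).

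ZFP91, a zinc finger protein degraded by the same drugs (chromosome 11, 58579111 to 58621042, plus strand), stood at 12.4 and 13.0 FPKM in the WT pair against 17.0 and 12.3 in the CfzR pair. CfzR replicate 1 was above both WT libraries and CfzR replicate 2 just below them. On the log2 scale CfzR minus WT was 0.18 (SE 0.22, limma adjusted p = 0.763), and -0.04 without CfzR replicate 1. The annotation holds a read-through gene, ZFP91-CNTF, that overlaps it on the same strand, so the level of ZFP91 is uncertain.

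COPS5, the catalytic subunit of the COP9 signalosome, removes NEDD8 from cullins and so resets the ligase (chromosome 8, 67043079 to 67083783, minus strand). It stood at 98.3 and 114 FPKM in the WT pair against 87.8 and 93.2 in the CfzR pair. Both CfzR values were below both WT values, and COPS5 was the only one of the 10 genes whose difference between groups exceeded that between the CfzR libraries. Its WT libraries were 0.21 apart on the log2(FPKM + 1) scale, nearly the size of the difference between groups. The log2 fold change was -0.22 (SE 0.21, 95% interval -0.71 to 0.27, limma adjusted p = 0.686), and it ran from -0.39 to -0.05 over the alternatives.

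BSG encodes basigin (CD147), which escorts lactate transporters to the cell surface and competes with these drugs for cereblon (chromosome 19, 571277 to 583493, plus strand). It stood at 527 and 473 FPKM in the WT pair against 379 and 485 in the CfzR pair. Only CfzR replicate 1 was below the WT range. This gave a log2 fold change of -0.22 (SE 0.27, 95% interval -0.86 to 0.43, limma adjusted p = 0.762). It was -0.042 without CfzR replicate 1, and under quantile normalization it was 0.071.

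Among genes with a value, those on the opposite strand that overlap a member are TRNT1 (over CRBN), TKFC (DDB1), PCID2 (CUL4A), CSPP1 (COPS5) and AC009005.1 (BSG). Their mean levels over the 4 libraries were 13.9, 105, 55.2, 17.3 and 1.11 FPKM. PPP1R42, not analysed here, overlaps COPS5 on the same strand. Whether the authors' counting used strand is not given in the sources used here, so reads in the shared bases could have been split between these genes, and their part in the values was not tested.

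The differences between the 2 CfzR libraries were larger than the differences between groups in 9 of the 10 genes, against 61.1% of all genes tested. In 7 of the 10 the CfzR libraries were further apart than the WT libraries, against 67.8% of all genes tested. CfzR replicate 1 was above CfzR replicate 2 for IKZF1, ZFP91, CUL4B and IKZF3, by 0.58, 0.44, 0.36 and 0.29 on the log2(FPKM + 1) scale. It was below for RBX1 (-0.50), DDB1 (-0.43) and BSG (-0.35), and within 0.13 for CRBN, COPS5 and CUL4A. The longest annotated transcripts of the former 4 span 4902 to 9787 bases, and those of RBX1, BSG and DDB1 span 1871, 2141 and 4506. Those of CRBN, COPS5 and CUL4A span 5628, 5691 and 5666. These genes also lay below 0 (-0.13, -0.09 and -0.03), though longer than CUL4B (4902) and ZFP91 (5220), so length does not divide the genes cleanly. Over the 10 genes this difference had a Spearman correlation of 0.648 with that length, a description of genes that share the same 2 libraries. With GC share it was -0.09. The difference between the WT libraries had 0.09 with length and 0.72 with GC share, the largest of these values. The longest transcript need not be the one these cells express. With trends in length and GC share removed, the 10 log2 fold changes ran from -0.39 to 0.09, against -0.22 to 0.27 before. What gave rise to these trends was not tested.

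**Figure D3:**
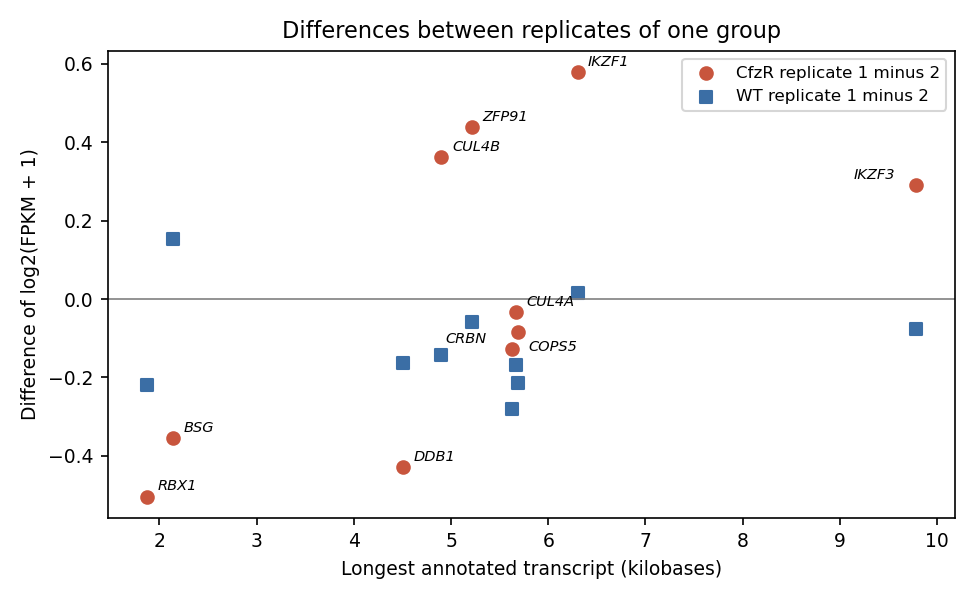
Difference of log2(FPKM + 1) between replicate 1 and replicate 2 within CfzR (red circles, named) and within WT (blue squares), against the length of the longest annotated transcript in kilobases. IKZF1, ZFP91, CUL4B and IKZF3 lie above 0 in CfzR, while the short transcripts of RBX1 (-0.50) and BSG (-0.35) lie below. CRBN, COPS5 and CUL4A, longer than CUL4B and ZFP91, lie slightly below 0.

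Ratios between genes within a library are free of any scale factor of that library, but not of trends with transcript length or GC share. The ratio of CRBN to DDB1 was 0.131 and 0.144 in WT and 0.173 and 0.141 in CfzR, so CRBN transcript was well below that of its adaptor in every library. The ratio of IKZF1 to IKZF3 was 0.764 and 0.715 in WT and 0.765 and 0.616 in CfzR. IKZF3 had the higher FPKM in all 4 libraries. The ratio of CUL4A to CUL4B was 1.41 and 1.43 in WT, and 1.04 and 1.38 in CfzR replicates 1 and 2.

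The CUL4A to CUL4B ratio was the only one of the 5 examined whose groups did not overlap. Its mean log2 value differed by -0.25 between CfzR and WT (0.26 ± 0.289 against 0.51 ± 0.0173, SD, n = 2 each), and by -0.04 without CfzR replicate 1. With 3 ways to divide 4 libraries, the smallest p that an exact two-sided permutation test can give is 0.333, which this ratio reached, and its adjusted p over the 5 ratios was 1. The ratios of CRBN to IKZF1 and to IKZF3, receptor to substrate, differed by 0.09 and -0.02 between groups on the log2 scale (exact permutation p = 1 for both). CRBN to IKZF1 was 0.883 in CfzR replicate 1 and 1.48 in CfzR replicate 2, which again enclosed the WT values of 0.969 and 1.20.

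**Figure D4:**
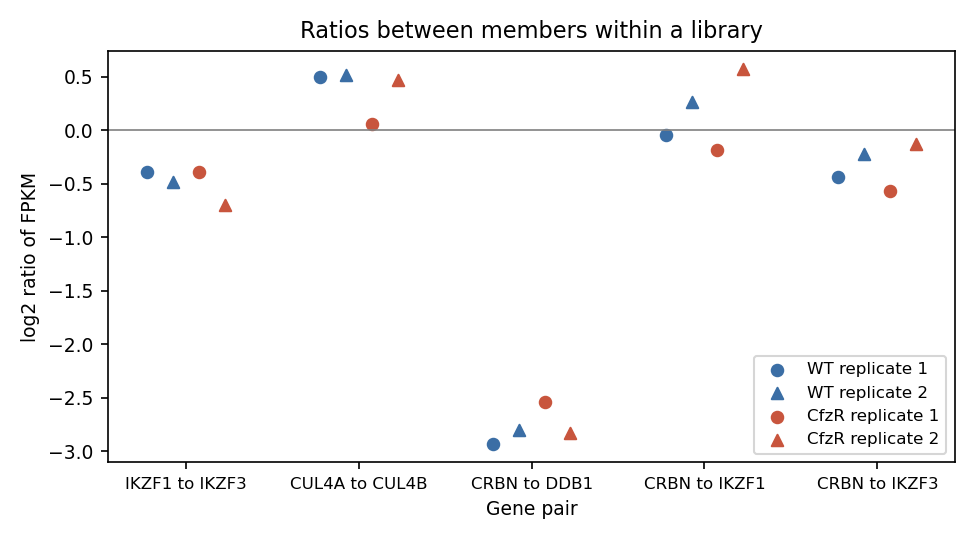
Log2 ratio of FPKM between 2 genes of the same library for 5 pairs; blue is WT, red is CfzR, circles are replicate 1 and triangles replicate 2. The CRBN to DDB1 ratio lies between -2.93 and -2.53 in all libraries, and the CUL4A to CUL4B point of CfzR replicate 1 (0.06) lies apart from the other 3 (0.47 to 0.52).

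Around the ligase, 6 lists of related genes were examined, with 100 genes in all (COPS5 is listed again among the signalosome genes). Of these, 91 had a value and 90 were tested, and 0 passed the threshold in limma. At an unadjusted p under 0.05 there was 1, KLF2, against 11.1% of all genes tested. Listed genes without a value (NEDD8, DCAF11, DCAF15, SALL4, TP63, SLC16A1, IKZF2, BATF2 and SPIB) are not analysed here.

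Of 20 cofactors, ubiquitin-conjugating enzymes and neddylation genes tested, 13 were positive and 7 negative in log2 fold change, the median was 0.10, and 0 passed. UBE2G1 and UBE2D3, the conjugating enzymes that work with CRL4 ligases, differed by 0.12 (limma adjusted p = 0.875) and 0.11 (adjusted p = 0.851) on the log2 scale. DDA1, a small subunit bound to DDB1, had 0.19 (adjusted p = 0.745), and the cullin exchange factor CAND1 had 0.15 (adjusted p = 0.790). The smallest unadjusted p of the list belonged to USP15, a deubiquitinating enzyme that associates with the signalosome, at 32.2 and 38.1 FPKM in the WT pair against 25.4 and 25.7 in the CfzR pair (log2 fold change -0.44, SE 0.19, adjusted p = 0.466). UBE2F, a NEDD8-conjugating enzyme, stood at 18.3 and 23.3 FPKM in the WT pair against 13.6 and 16.2 in the CfzR pair (log2 fold change -0.45, adjusted p = 0.489). In both genes the CfzR values were below all WT values, as for 22.6% of all tested genes. Without WT replicate 2 the difference of UBE2F was -0.28. DCUN1D3, which assists cullin neddylation, was low throughout, at 0.871 and 0.823 FPKM in the WT pair against 1.82 and 1.25 in the CfzR pair (log2 fold change 0.45, adjusted p = 0.549), and its difference was 0.28 without CfzR replicate 1.

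Of the 10 signalosome subunits, 7 were negative and 3 positive, the median was -0.10, and 0 passed. GPS1, the subunit also called CSN1, stood at 88.5 and 114 FPKM in the WT pair against 53.9 and 88.9 in the CfzR pair, a log2 fold change of -0.53 (SE 0.29, limma adjusted p = 0.531) in which the groups overlapped. It was -0.17 without CfzR replicate 1, -0.88 without CfzR replicate 2 and -0.35 without WT replicate 2. COPS8, a small subunit, had higher values in both CfzR libraries, at 28.2 and 25.6 FPKM in the WT pair against 35.3 and 30.7 in the CfzR pair (log2 fold change 0.28, adjusted p = 0.595, and 0.18 without CfzR replicate 1). The signs thus differed among the subunits, and 22.1% of all tested genes had both CfzR values above both WT values.

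Of 21 other substrate receptors of CUL4 ligases, which compete with cereblon for DDB1, 10 were positive and 11 negative, with a median of -0.0017 and 0 past the threshold. DTL, which targets replication licensing factors, had a log2 fold change of 0.23 (limma adjusted p = 0.717), and DDB2, which recognises ultraviolet damage, had -0.24 (adjusted p = 0.761). DCAF4 had the smallest unadjusted p, at 10.1 and 7.25 FPKM in the WT pair against 6.21 and 5.04 in the CfzR pair (log2 fold change -0.53, SE 0.23, adjusted p = 0.460, and -0.32 without WT replicate 1). The differences of TRPC4AP (-0.38, adjusted p = 0.538) and DCAF10 (-0.32, adjusted p = 0.581) did not pass either. That of TRPC4AP was -0.22 without CfzR replicate 1. For DCAF10 it was -0.49 with the first CfzR library left out and -0.16 with the other left out.

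Of 22 other proteins that cereblon-binding drugs are known to bring to the ligase, 11 were positive and 11 negative, with a median of 0.02 and 0 past the threshold. CSNK1A1, the casein kinase degraded by lenalidomide, stood at 34.7 and 40.0 FPKM in the WT pair against 48.0 and 36.4 in the CfzR pair (log2 fold change 0.16, limma adjusted p = 0.780). GSPT1, a translation termination factor, stood at 47.9 and 47.3 FPKM in the WT pair against 49.1 and 41.1 in the CfzR pair (log2 fold change -0.08, adjusted p = 0.884). ZNF692, a zinc finger protein, had the largest difference of the list: 50.3 and 52.6 FPKM in WT, 19.0 in CfzR replicate 1 and 43.1 in CfzR replicate 2. On the log2 scale CfzR minus WT was -0.82 (SE 0.36, adjusted p = 0.460) and -0.25 without CfzR replicate 1. RNF166, a ubiquitin ligase, had a difference of -0.46 (adjusted p = 0.487), and DTWD1 one of 0.49 (adjusted p = 0.496). Without CfzR replicate 1 they were -0.24 and 0.23.

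Among 6 proteins that cereblon binds without a drug, 3 were positive and 3 negative, with a median of -0.02 and 0 past the threshold. SLC3A2 and SLC7A5 form the amino acid transporter CD98 and LAT1, which cereblon helps to mature. SLC3A2 stood at 1109 and 1163 FPKM in the WT pair against 715 and 904 in the CfzR pair (log2 fold change -0.50, SE 0.31, limma adjusted p = 0.564), and -0.09 under quantile normalization. SLC7A5 stood at 97.1 and 84.1 FPKM in the WT pair against 128 and 98.6 in the CfzR pair (log2 fold change 0.31, adjusted p = 0.622). The partners of this transporter had opposite signs, each without overlap of the groups, as for 44.7% of all tested genes. Without CfzR replicate 1 the differences were -0.33 for SLC3A2 and 0.12 for SLC7A5. PRKAA1, a catalytic subunit of the energy sensor AMPK, and AHSA1, a cochaperone of HSP90, differed by 0.53 (adjusted p = 0.483) and -0.36 (adjusted p = 0.558) on the log2 scale, and by 0.26 and -0.20 without CfzR replicate 1.

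Of the other Ikaros family genes and the factors that act with them or downstream of them in myeloma, 11 were tested, 4 positive and 7 negative, with a median of -0.12 and 0 past the threshold. IRF4, the factor on which myeloma cells depend, stood at 226 and 222 FPKM in the WT pair against 284 and 206 in the CfzR pair, with CfzR libraries on either side of WT (log2 fold change 0.11, SE 0.25, limma adjusted p = 0.873). MYC stood at 327 and 266 FPKM in the WT pair against 307 and 268 in the CfzR pair, with both CfzR values between the WT values (log2 fold change -0.04, SE 0.25, adjusted p = 0.956). IKZF5, a family member, stood at 7.78 and 7.16 FPKM in the WT pair against 7.42 and 4.98 in the CfzR pair (log2 fold change -0.25, adjusted p = 0.687), with a difference of -0.50 without CfzR replicate 1 and -0.0068 without CfzR replicate 2. IKZF4 was under the filter and was not tested, at 0.676 and 0.601 FPKM in the WT pair against 1.003 and 1.01 in the CfzR pair.

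KLF2, a Krüppel-like factor of lymphoid cells, had the largest difference among the related genes. It stood at 1345 and 1200 FPKM in the WT pair against 559 and 804 in the CfzR pair, so both CfzR values were below both WT values. The log2 fold change was -0.92 (SE 0.33), and it did not pass over all genes (limma adjusted p = 0.369). It was -0.66 without CfzR replicate 1 and -0.55 under quantile normalization. RUNX3 and BATF, lymphoid transcription factors, differed by -0.44 (adjusted p = 0.485) and -0.47 (adjusted p = 0.554) on the log2 scale. Groups did not overlap for either gene or for KLF2, as for 44.7% of all tested genes. For BATF most of the difference lay in CfzR replicate 1, at 7.81 FPKM against 14.0 in CfzR replicate 2 and 15.1 and 14.7 in WT, and without that library it was -0.083. For RUNX3 it was -0.31 without that library.

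**Figure D5:**
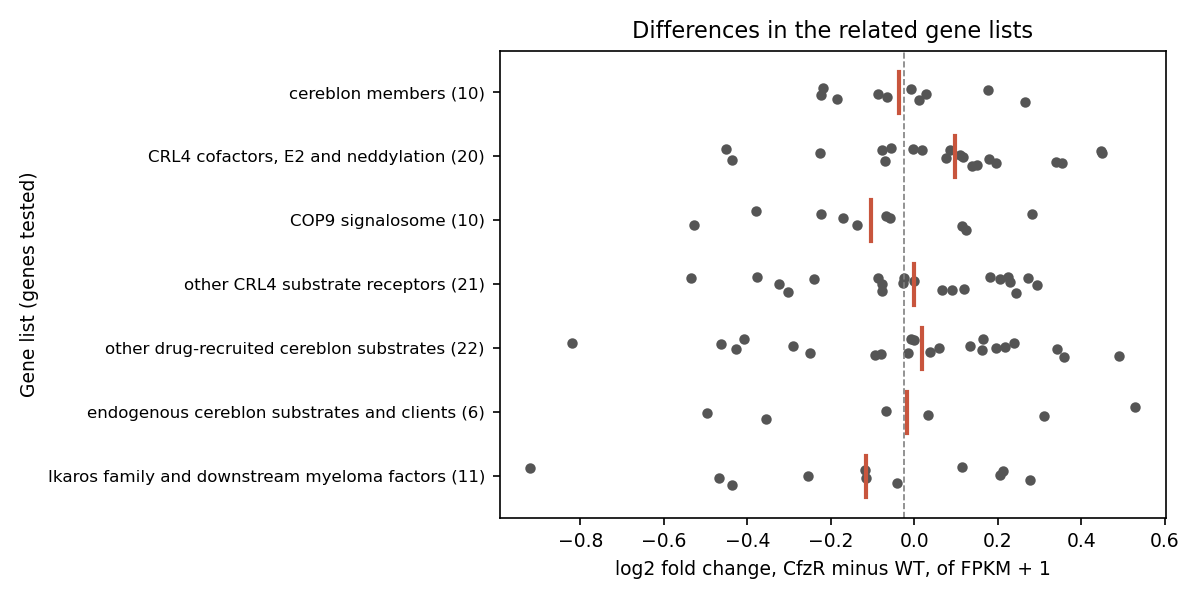
Log2 fold change (CfzR minus WT, on log2(FPKM + 1)) of every tested gene in the cereblon set and the 6 related lists; points are genes, red bars are list medians and the dashed line is the median over all genes tested (-0.02). List medians lie between -0.12 and 0.10, and the lowest points are KLF2 (-0.92) and ZNF692 (-0.82).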

How the data were processed

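RNA sequencing of 4 ARP-1 libraries was analysed. The authors deposited 1 table of FPKM values with 15201 Ensembl gene IDs. Per the submitters' processing notes the tools were STAR and Cufflinks. Versions, build and annotation were not given in the sources used here. Columns named for a control were assigned to WT, the only other group. FPKM holds no counts and low values shared no step of 1 read, so depth is unknown. Symbols were matched by ID for 15027 genes, and positions and lengths come from GENCODE release 29. The comparison used limma 3.58.1 under R 4.3.3 (eBayes with trend) on log2(FPKM + 1), a scale that understates changes of low genes, after a filter at a mean of 1 FPKM. The procedure was tested on simulated data with noise drawn from the fitted model. The simulation held no trends in transcript length or GC share, so it does not cover those between the CfzR libraries. Plain values are FPKM as deposited. The 13 alternatives were other pseudocounts (0.1, 5) and filters (none, 5), TMM and quantile scaling, no trend, a replicate block, leaving out each library, and removal of trends with transcript length and GC share (splines with 4 degrees of freedom, 12896 genes, 96.2%). The genes and lists were chosen with earlier results of these data known. The text names all 10 members, a fixed set of related genes, and from each list the 3 with the smallest unadjusted p.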

Additional observations from a re-analysis of the deposited data

How the results depend on the processing

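None of the 10 genes passed under any of the 13 alternatives, and COPS5 and CUL4B were the only members that kept their sign in all of them. The count over all genes was 27 with a filter at 5 FPKM and 16 to 260 with 1 library left out, where a lone library is assumed to vary like the others. With a replicate block it was 1242 (487 higher, 755 lower). The deviations of same-numbered libraries correlated at 0.252 across genes, but 2 pairs do not show that the numbers pair the samples. In the block fit, with 1 residual degree of freedom, ZNF692 passed (-0.82, limma adjusted p = 0.00289), which makes 1 among the drug-recruited substrates. It was the only gene of the related lists to pass under any alternative. The standard errors of the block fit came from values pooled over genes, not from the spread of each gene (ABCB1, limma adjusted p = 4.6e-224). The 1242 calls and that of ZNF692 rest on this pooling and are not cautious. The fits without WT replicate 1 or without WT replicate 2 pooled in the same way, so their counts are not cautious either. TMM scaling turned CRBN to 0.013. Quantile normalization turned CRBN (0.044), DDB1 (0.0026), RBX1 (0.074), BSG (0.071), MYC (0.21) and GSPT1 (0.045). The length and GC correction turned CUL4A (-0.089), IKZF3 (-0.079), MYC (0.049), CSNK1A1 (-0.0050), UBE2G1 (-0.0043), UBE2D3 (-0.071) and CAND1 (-0.030). Adjusted p for these was 0.785 or more. With 1 library left out, log2 fold changes that changed sign ran from -0.15 to 0.13 for CRBN, -0.40 to 0.028 for DDB1, -0.056 to 0.11 for CUL4A, -0.32 to 0.19 for RBX1, -0.38 to 0.20 for IKZF1, -0.13 to 0.16 for IKZF3, -0.043 to 0.39 for ZFP91, -0.12 to 0.34 for IRF4, -0.19 to 0.11 for MYC, -0.033 to 0.36 for CSNK1A1, -0.21 to 0.044 for GSPT1, -0.22 to 0.46 for UBE2G1, -0.041 to 0.43 for DDA1, -0.039 to 0.34 for CAND1, -0.010 to 0.47 for DTL and -0.60 to 0.12 for DDB2. The cause was not tested. Depth is unknown, so no counting error can be given.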
